A study of Mus musculus with 9 samples.

Results

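Saa1, Saa2 and Saa3 (serum amyloid A), Lcn2 (lipocalin 2) and Hp (haptoglobin) were followed in mouse colon through DSS colitis and electroacupuncture (EA). They were chosen by gene symbol as acute-phase genes, with earlier results of these data known. All 5 were present among the 27719 genes of the count table. Colon RNA of 9 C57BL/6J mice was read as full-length cDNA on a Nanopore sequencer, with 3 mice in each of 3 groups. The control group drank water. The DSS group drank 2.5% dextran sodium sulfate (DSS), a detergent-like polymer that injures the colon lining, for 7 days. The DSS + EA group drank the same DSS and, after 5 days of it, received EA once daily for 5 days, that is 30 minutes of current at 2 Hz and 0.2 mA through needles at both Zusanli (ST36) points of the hind legs. Control and DSS mice were held for the same 30 minutes without needles, so holding was shared by all groups and needling was not. Colon for histology was taken after the 5 days of treatment. The age of the mice is not given in the sources used here. The libraries held 2627695 to 4235576 counts, and levels are given as CPM, the counts of a gene per 1000000 counts of the library after TMM normalization.

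Acute-phase proteins are secreted when cytokines such as IL-1, IL-6, TNF and IL-22 signal through NF-kB, STAT3 and the C/EBP factors, and the liver is their best known source. Serum amyloid A proteins travel with high-density lipoprotein, and intestinal epithelium also makes them. Lipocalin 2 binds the iron carriers of bacteria and is widely used as a stool marker of gut inflammation, and haptoglobin binds haemoglobin that leaks from damaged red cells. Macrophages and fat cells are known to express Saa3, neutrophils carry lipocalin 2 in their granules, and fat cells express Hp.

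Coordinates are those of GENCODE M21 on GRCm38, which matches the mm10 build named in the submitters' processing notes. The Saa genes are protein-coding genes of one cluster on chromosome 7, spanning 42.3 kb. Saa3 lies at chr7:46711998-46715700 on the minus strand, Saa1 at chr7:46740497-46742980 on the minus strand, and Saa2 at chr7:46751790-46754313 on the plus strand. Lcn2 lies at chr2:32384633-32388252 and Hp at chr8:109575128-109579172, both on the minus strand. The main transcripts of Saa1 and Saa2 differed at 34 of 606 aligned bases, an identity of 94.4%, while Saa1 and Saa3 were 76.0% identical over their coding bases. RefSeq also lists each of Saa1 and Saa2 as an older synonym of the other. How the counts of Saa1 and Saa2 were divided therefore depends on the authors' read assignment, which is not given in the sources used here, and their separate levels are uncertain. The first 90 coding bases show how far the 3 genes can be told apart, with capitals at each base that differs from Saa1 at the same place, which is 4 bases in Saa2 and 44 in Saa3.
Saa1: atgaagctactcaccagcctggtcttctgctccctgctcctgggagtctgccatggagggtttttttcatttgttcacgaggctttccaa
Saa2: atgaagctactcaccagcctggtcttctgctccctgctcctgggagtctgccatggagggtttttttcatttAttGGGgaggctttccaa
Saa3: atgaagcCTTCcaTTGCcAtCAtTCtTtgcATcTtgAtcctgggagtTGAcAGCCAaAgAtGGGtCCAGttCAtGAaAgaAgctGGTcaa

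Promoters are shown because Saa3, Lcn2 and Hp moved together in these mice while Saa1 did not. RefSeq (GRCm38.p6) gave promoters of 300 bases, 250 before and 50 after the start site, for 4 of the 5 genes, Hp being the one without. Those of Saa1, Saa3 and Lcn2 are printed on the strand of the gene, that of Saa2 being close to Saa1, and capitals mark letters TTGCNNAA, a C/EBP-type motif searched on both strands (in Saa3 it lies on the opposite strand).
Saa1, chr7:46742931-46743230, minus strand: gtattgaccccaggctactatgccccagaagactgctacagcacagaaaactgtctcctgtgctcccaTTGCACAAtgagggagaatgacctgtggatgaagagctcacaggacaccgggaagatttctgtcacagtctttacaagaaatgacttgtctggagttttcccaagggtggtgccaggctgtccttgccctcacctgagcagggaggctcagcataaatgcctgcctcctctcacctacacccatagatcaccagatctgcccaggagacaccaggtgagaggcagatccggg
Saa3, chr7:46715627-46715926, minus strand: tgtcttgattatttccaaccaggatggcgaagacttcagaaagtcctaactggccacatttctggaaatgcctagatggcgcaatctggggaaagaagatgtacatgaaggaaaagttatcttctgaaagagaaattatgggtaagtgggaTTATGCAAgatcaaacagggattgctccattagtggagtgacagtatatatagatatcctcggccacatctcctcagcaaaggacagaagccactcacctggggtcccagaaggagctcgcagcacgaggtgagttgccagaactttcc
Lcn2, chr2:32387690-32387989, minus strand: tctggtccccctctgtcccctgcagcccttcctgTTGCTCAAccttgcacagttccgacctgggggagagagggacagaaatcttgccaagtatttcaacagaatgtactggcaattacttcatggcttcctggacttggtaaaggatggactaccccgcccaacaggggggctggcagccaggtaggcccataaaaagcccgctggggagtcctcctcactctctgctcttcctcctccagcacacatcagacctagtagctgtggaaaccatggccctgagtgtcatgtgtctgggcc
The match began at base -182 of Saa1, -183 of Saa2, -99 of Saa3 and -216 of Lcn2, counted from the start site. These letters were found in 10.8% of the 32851 mouse promoters of the same length. The STAT-type letters TTCNNNGAA, held by 8.30% of promoters, and the NF-kB motif, held by 8.46%, were not found in the 4 windows. The Saa1 and Saa2 promoters were 96.0% identical over their aligned bases. A match is a description of letters and was not tied to any change in level.

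Saa3 was the gene whose level moved the most among the 5. Its CPM was 7.31, 7.92 and 14.4 in control mice 1, 2 and 3. In DSS mice 1, 2 and 3 it was 7284, 13534 and 41291. In DSS + EA mice 1, 2 and 3 it was 742, 1262 and 596. The groups did not overlap, and every DSS + EA mouse lay between the control and the DSS mice. By count, Saa3 ranked 8263, 7785 and 5796 in the control libraries and 3, 3 and 1 in the DSS libraries, so that in DSS mouse 3 it was the most counted gene of the whole table. The log2 fold change of DSS over control was 11.04 (SE 0.87), with an adjusted p of 3.33e-05 by edgeR's quasi-likelihood test. With EA it fell by 4.58 on the log2 scale against DSS (SE 0.65, edgeR adjusted p = 0.00113), which was 23.9-fold lower by group means. It stayed 6.46 above control on the log2 scale (SE 0.73, edgeR adjusted p = 0.0026). The DSS mice spread widely, the highest being 5.67 times the lowest, and the DSS + EA mice less so, at 2.12 times. These are bulk tissue values, so that more cells of a type and more RNA per cell cannot be told apart.

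Lcn2 followed the same course at a lower level. Control mice 1, 2 and 3 had 6.30, 2.64 and 6.84 CPM. DSS raised it to 533, 2374 and 4787 CPM, and the DSS + EA mice had 111, 195 and 101 CPM. No 2 groups overlapped, and DSS mouse 1 was again the lowest of its group. Its rank by count was 8794, 11407 and 8302 in control libraries 1, 2 and 3, and it reached 319, 54 and 10 in the DSS libraries. With EA it ranked 1358, 821 and 1513. The highest DSS mouse had 8.98 times the Lcn2 of the lowest, the widest spread of any of the 5 genes in DSS. The difference of DSS from control was 8.92 on the log2 scale (SE 0.89, edgeR adjusted p = 0.000109). DSS + EA lay 18.9-fold under DSS by group means, a log2 fold change of -4.24 (SE 0.71, edgeR adjusted p = 0.0022). Against control, DSS + EA was higher by 4.68 on the log2 scale (SE 0.76, edgeR adjusted p = 0.0104). That last call was lost without control mouse 1 (edgeR adjusted p = 0.0702) or without control mouse 2 (edgeR adjusted p = 0.0593).

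Hp varied least among the DSS mice. It had 3.03, 5.61 and 8.75 CPM in control mice 1, 2 and 3, and 999.6, 998.96 and 2155 CPM in the DSS mice. With EA the values were 111, 147 and 84.7 CPM. Here too the 3 groups were apart, with DSS + EA in between. The highest DSS mouse had 2.16 times the Hp of the lowest, against 5.67 times for Saa3. By count Hp ranked 190, 157 and 68 in the DSS libraries and 1362, 1061 and 1735 in the DSS + EA libraries. Hp was 7.92 higher in DSS than in control on the log2 scale (SE 0.54, edgeR adjusted p = 1.71e-05). EA mice were 12.1-fold below DSS mice by group means, a log2 fold change of -3.60 (SE 0.43, edgeR adjusted p = 0.00054). Above control they remained by 4.33 on the log2 scale (SE 0.47, edgeR adjusted p = 0.00232).

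Saa1 took another course. It was abundant in healthy colon, with 2037 CPM in control mouse 1, 1951 in mouse 2 and 765 in mouse 3. The DSS mice had 1657, 829 and 276 CPM and overlapped the control mice. The DSS + EA mice had 4091, 2460 and 3206 CPM, above every mouse of both other groups. Saa1 ranked 77, 90 and 241 by count in control libraries 1, 2 and 3 and 18, 70 and 26 in the DSS + EA libraries. In the DSS libraries it ranked 127, 188 and 532. The DSS difference from control was -0.78 on the log2 scale (SE 0.56, edgeR adjusted p = 0.291) and did not pass the test. Without DSS mouse 1 that difference was -1.55 with an edgeR adjusted p of 0.0363. Saa1 was 3.53-fold higher in DSS + EA than in DSS by group means, a log2 fold change of 1.82 (SE 0.58, edgeR adjusted p = 0.0342). This call was lost without DSS mouse 2 (edgeR adjusted p = 0.101), DSS mouse 3 (0.0549), DSS + EA mouse 1 (0.0927) or DSS + EA mouse 3 (0.0785), and with only these groups in the fit (0.0504). Over control the DSS + EA difference was 1.04 on the log2 scale (SE 0.57, edgeR adjusted p = 0.397), which did not pass although the mice did not overlap.

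Saa2 was almost absent. Control libraries 1, 2 and 3 held 1, 0 and 0 counts, DSS libraries 17, 10 and 15, and DSS + EA libraries 11, 1 and 2. The DSS libraries lay above the control libraries, and DSS + EA library 1 lay inside the DSS range. The ratio of DSS to control was 36.8 from 42 counts against 1, with an exact 95% counting interval of 6.25 to 1486, and edgeR gave an adjusted p of 0.00563. The DSS + EA difference from DSS was -1.39 on the log2 scale (SE 0.69, edgeR adjusted p = 0.138). Without DSS + EA mouse 1 it was -2.90 with an edgeR adjusted p of 0.0281. For DSS + EA over control the ratio was 14.7 from 14 counts against 1, with an interval of 2.23 to 620, and the edgeR adjusted p was 0.186. When the counts of Saa1 and Saa2 were summed, the sum moved as Saa1 did, and whether a few counts of Saa1 or Saa3 were placed on Saa2 was not tested.

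**Figure D1:**
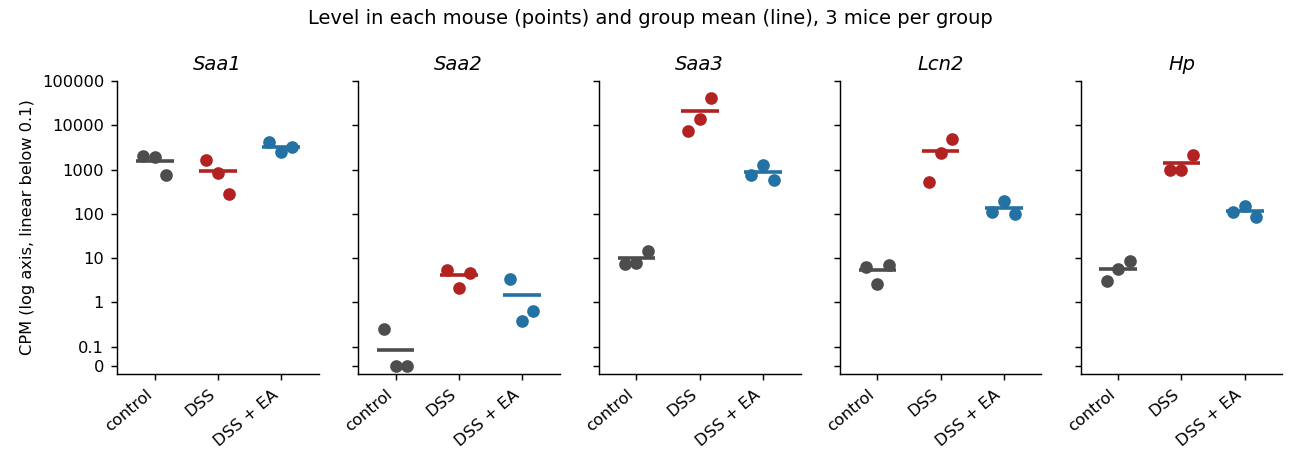
CPM of each gene on a log axis (linear below 0.1) in the 3 mice of each group (points), with the group mean as a line. Saa3, Lcn2 and Hp are lowest in control, highest in DSS and in between in DSS + EA, Saa1 is highest in DSS + EA, and Saa2 does not exceed 5.43 CPM.

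Of the 5 genes, 4 were called higher in DSS than in control at an adjusted p under 0.05 (Saa2, Saa3, Lcn2 and Hp), where 21.5% of the 12566 genes tested were called higher and 19.5% lower. Saa2, with 1 count in the control libraries together, passed the filter on low counts through the libraries where it is high, and was not tested with only DSS and control in the fit, where 3 were called. The same 4 met the study's rule for differentially expressed genes (DEGs), a log2 fold change beyond 2.5 at an unadjusted p under 0.01, which 6.62% of genes met in the higher direction. The rule was applied here to edgeR values, whereas the study applied it to DESeq2 results, so these DEGs are not the study's own. In those 4 the mice of both groups were apart, as in 26.1% of genes in that direction. From DSS to DSS + EA, 3 genes were called lower (Saa3, Lcn2 and Hp) and 1 higher (Saa1), against 18.3% of genes lower and 17.2% higher. The 3 that fell were also DEGs, as 3.50% of genes were in the lower direction. Their mice were apart, as in 23.3% of genes in the lower direction, and the mice were apart in the higher direction for Saa1, as in 24.2% of genes. Over control, DSS + EA was called higher for 3 genes (Saa3, Lcn2 and Hp), where only 3.00% of genes were called higher, 0.637% lower, and 1.74% were DEGs in the higher direction as those 3 were. In that comparison all 5 genes had every DSS + EA mouse above every control mouse, as 18.0% of genes did. For Saa2 this rests on 1 count in DSS + EA mouse 2 (0.370 CPM) against 1 count in control mouse 1 (0.252 CPM). The comparisons share mice, since each group enters 2 of them.

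**Figure D2:**
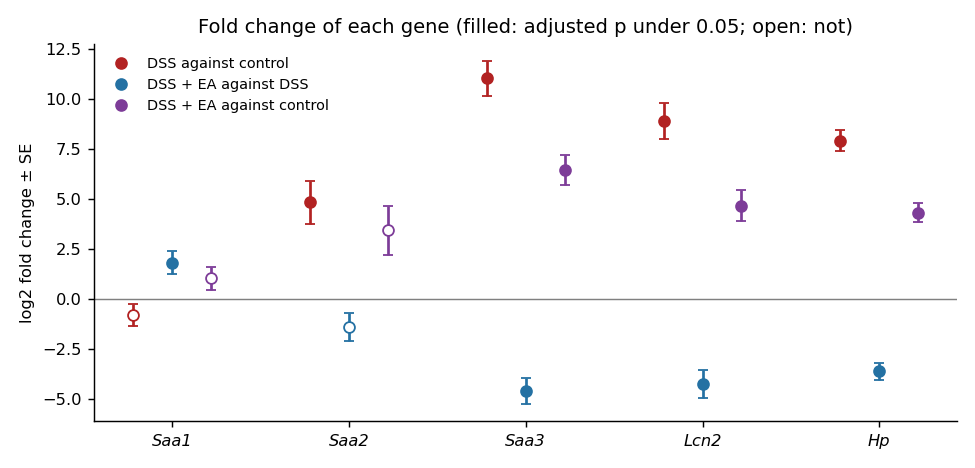
The log2 fold change ± SE of each gene in the 3 comparisons, from edgeR; filled points have an adjusted p under 0.05. Saa3 shows 11.04, -4.58 and 6.46, Saa1 shows -0.78, 1.82 and 1.04, and the Saa2 folds over control rest on 1 control count.

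The serum amyloid A message of the colon changed from almost all Saa1 to mostly Saa3 in DSS. Shares of counts within a library need no scaling between libraries. Saa3 made up 0.358%, 0.404% and 1.85% of the Saa1, Saa2 and Saa3 counts in control mice 1, 2 and 3. The 95% Wilson intervals were 0.249 to 0.513, 0.272 to 0.601 and 1.35 to 2.53%, and they cover counting error only. In the DSS mice the share was 81.4%, 94.2% and 99.3%, the widest interval being 81.0 to 81.9%. With EA it was 15.3%, 33.9% and 15.7%, with intervals of 14.8 to 15.9, 33.0 to 34.8 and 15.04 to 16.3%. Put as a ratio, there were 4.39, 16.3 and 149.5 Saa3 counts per Saa1 count in DSS mice 1, 2 and 3, and 0.181, 0.513 and 0.186 in the DSS + EA mice. The 3 groups did not overlap, and the mouse with the most Saa3, DSS mouse 3, was also the DSS mouse with the least Saa1. An exact permutation test of 3 mice against 3 cannot go below p = 0.1. Saa1 made up 98.3 to 100% of the Saa1 and Saa2 counts in every library. Saa4, which lies in the same cluster, had at most 0.619 CPM in any library.

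**Figure D3:**
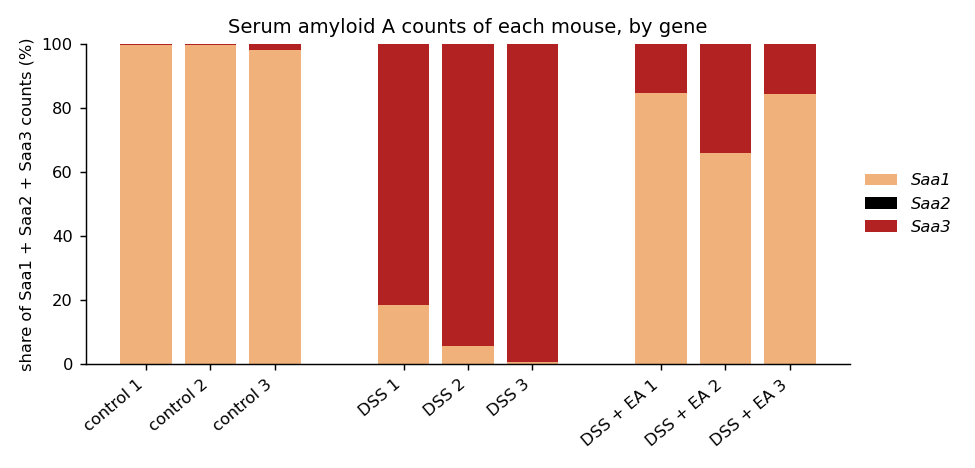
Each bar is one mouse, divided into the percentage of its Saa1, Saa2 and Saa3 counts that fell on each gene. Saa1 fills the control bars, Saa3 takes 81.4 to 99.3% of the DSS bars and 15.3 to 33.9% of the DSS + EA bars, and Saa2 is too thin to see.

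Per kilobase of annotated transcript, the order of the 5 genes differed between groups. Control colon had 2602 ± 1168 CPM per kb of Saa1 (SD, n = 3), far above Saa3 at 17.8 ± 7.13. Lcn2 at 5.75 ± 2.50 and Hp at 4.31 ± 2.13 CPM per kb overlapped each other, and Saa2 was last at 0.139 ± 0.24. In DSS colon Saa3 led with 37303 ± 32616 CPM per kb. Lcn2 at 2803 ± 2331, Saa1 at 1512 ± 1142 and Hp at 1029 ± 496 CPM per kb overlapped, and Saa2 was again last at 6.72 ± 2.82. With EA the order was Saa1 at 5341 ± 1340, Saa3 at 1562 ± 630, Lcn2 at 148 ± 56.3, Hp at 85.0 ± 23.3 and Saa2 at 2.38 ± 2.70 CPM per kb. The division by length turns the order of overlapping genes, since by CPM alone Hp at 5.79 stood above Lcn2 at 5.26 in control colon, and Hp at 1384 above Saa1 at 921 in DSS colon. With reads of full-length cDNA, counts need not grow with transcript length, so the division may set long transcripts such as Hp too low. Which order is closer to the number of molecules was not tested. Together the 5 genes took 0.218%, 0.185% and 0.0796% of the counts of control mice 1, 2 and 3. They took 1.03%, 1.94% and 4.85% in the DSS mice and 0.514%, 0.386% and 0.386% in the DSS + EA mice.

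The proportion between the moving genes was not fixed. There were 1.16, 3 and 2.11 Saa3 counts per Lcn2 count in control mice 1, 2 and 3, where both genes were low. The DSS mice had 13.7, 5.70 and 8.63 Saa3 counts per Lcn2 count. The DSS + EA mice had 6.66, 6.48 and 5.92, a narrower range that overlapped the DSS mice. All DSS and DSS + EA mice exceeded all control mice in this ratio. Hp and Lcn2 were closer to equal, with 0.48, 2.13 and 1.28 Hp counts per Lcn2 count in control mice 1, 2 and 3. The DSS mice had 1.87, 0.421 and 0.45, and the DSS + EA mice 0.997, 0.755 and 0.841, so that the groups overlapped. In DSS mouse 1 Hp exceeded Lcn2, and in DSS mice 2 and 3 Lcn2 exceeded Hp.

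Other acute-phase genes moved with these. From a list of 30 (metallothioneins, serpins, complement, fibrinogen and others), 17 were called higher in DSS than in control. These were 100% of those tested, beside 21.5% of all genes, and the other 13 did not pass the filter on low counts. Of the 17, 4 had at most 10 counts in the control mice together (Orm1, Itih3, Serpina3m and A2m, picked for naming after their values were seen) and passed the filter through the other groups, which favours a higher call. The median log2 fold change over the 17 was 4.44, or 4.38 with genes at 0 in a whole group set at their lower bound, beside 0.02 over all genes tested. With EA, 11 of 17 were called lower than in DSS, with a median of -1.26 beside -0.02 over all genes. That is 64.7% beside 18.3% of all genes called lower. Orm1 passed the filter through the DSS mice, which favours a lower call with EA. Over control, DSS + EA stayed higher for 12 of 17, with a median of 2.56 beside 0.00 over all genes. That is 70.6% beside 3.00% of all genes called higher.

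Mt1 and Mt2 code for metallothioneins, which bind zinc and copper. Mt2 had 59.0, 36.0 and 41.1 CPM in control mice 1, 2 and 3, 2438, 3274 and 3478 in DSS and 154, 230 and 188 in DSS + EA. It rose by 6.07 on the log2 scale with DSS (SE 0.31, edgeR adjusted p = 5.45e-06) and with EA it fell by 4.01 (SE 0.28, edgeR adjusted p = 0.00011). Serpina3n, a secreted protease inhibitor, rose from 9.45 ± 2.68 to 658 ± 93.1 CPM with DSS (SD, n = 3) and was 125 ± 33.3 CPM with EA. C3, the central complement protein, went from 34.3 ± 15 to 480 ± 104 and 201 ± 21.9 CPM. In Mt1, Mt2, Serpina3n and C3 the groups were apart, with DSS + EA in between as for Saa3, Lcn2 and Hp. Crp and Apcs, the pentraxins of liver, had 0 counts in every library, and Fgb, a fibrinogen chain, had 27.4 CPM in DSS mouse 1 and no more than 2.16 CPM in any other mouse.

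**Figure D4:**
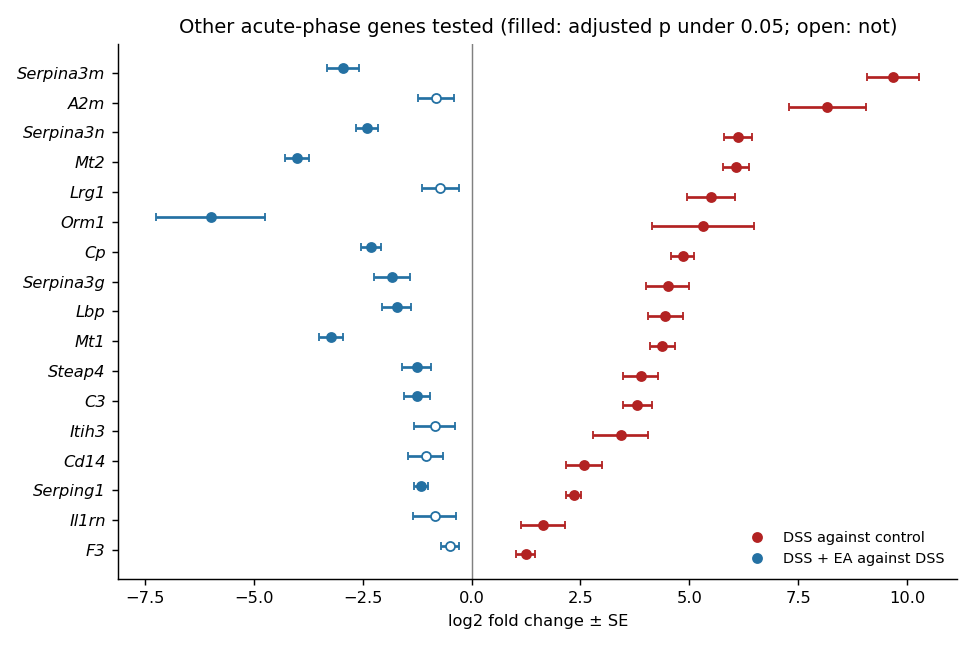
The log2 fold change ± SE of the 17 other acute-phase genes tested, with DSS against control in red and DSS + EA against DSS in blue; filled points have an adjusted p under 0.05. All DSS points lie right of 0 and all EA points left of it, 11 of them filled; A2m, at 0 counts in every control library, has a fold that depends on the prior count.

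The cytokines and signal proteins that act upstream of acute-phase genes mostly rose too. Of 35 listed, 30 were tested, and 23 were called higher and 2 lower (Il17rc and Tyk2) in DSS than in control. That is 76.7% higher and 6.67% lower, beside 21.5% and 19.5% of all genes. The median log2 fold change was 2.28. As 6 of the 30 had at most 10 counts in the control mice together and passed the filter through the other groups, a higher call was favoured for them. With EA, 18 were called lower than in DSS and 2 higher, these being Il17rc and Tyk2 again, with a median of -1.52. That is 60% lower and 6.67% higher, beside 18.3% and 17.2% of all genes. Where a gene passed the filter through the DSS mice, as Il6 did, a lower call with EA was favoured. The Tyk2 call with EA was lost without DSS mouse 2, DSS + EA mouse 1 or DSS + EA mouse 3, leaving 1 gene higher, and the number lower in DSS was 1 to 3 when 1 mouse was left out. Over control 3 stayed higher (Il1b, Socs3 and Tnf), or 10% beside 3.00% of all genes, with a median of 0.42. Without control mouse 1 or control mouse 2 that count over control was 0 (for Socs3, edgeR adjusted p = 0.0702 and 0.0524), and without DSS mouse 1 it was 8. Il17rc, Tyk2, Il1b and Tnf were picked for naming after their values were seen.

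Il6, the main cytokine of the hepatic acute phase, had 0, 0.330 and 0.380 CPM in control mice 1, 2 and 3. It had 29.7, 55.0 and 33.7 CPM in DSS and 1.21, 2.59 and 2.52 CPM in DSS + EA, and fell by 4.23 on the log2 scale with EA (SE 0.42, edgeR adjusted p = 0.000321). Il1r1, the signalling receptor of IL-1, went from 22.0 ± 4.40 CPM in control to 227 ± 51.3 in DSS and 32.5 ± 8.76 in DSS + EA. Socs3, which STAT3 induces and which damps it, went from 15.6 ± 3.69 to 327 ± 131 and 106 ± 53.2 CPM. The Socs3 call between DSS + EA and DSS was lost without DSS mouse 2 (edgeR adjusted p = 0.0516) or DSS + EA mouse 3 (0.051). Nfkbia, the inhibitor that NF-kB itself induces, led the list in every library with 78.9 ± 5.20 CPM in control, 866 ± 214 in DSS and 162 ± 45.3 in DSS + EA, and was called lower with EA (edgeR adjusted p = 0.000392). Tnfrsf1a, a TNF receptor, had 52.1 ± 4.04, 169 ± 62.1 and 94.1 ± 14.6 CPM. Its call with EA (edgeR adjusted p = 0.0277) was lost without DSS mouse 3, DSS + EA mouse 1 or DSS + EA mouse 2 and with only these groups in the fit (edgeR adjusted p from 0.068 to 0.106). Il22 was too low to test, with 13.8 CPM in DSS mouse 2, 1.11 to 2.20 CPM in the DSS + EA mice, and at most 0.619 CPM in the others.

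Receptors and binding partners of the acute-phase proteins were mostly low genes. Of 17 listed, 12 were tested. As 3 of the 12 had at most 10 counts in the control mice together and passed the filter through the other groups, a higher call in DSS was favoured for them. In DSS, 9 of 12 were higher than in control (median log2 fold change 1.90), or 75% beside 21.5% of all genes. With EA 7 were lower than in DSS (median -1.73), or 58.3% beside 18.3% of all genes. Over control edgeR called 0 of 12 with EA, 3 had an unadjusted p under 0.05, DESeq2 called 2, and edgeR called 2 without DSS mouse 1. Cd163, the scavenger receptor for haptoglobin bound to haemoglobin, went from 3.06 ± 1.35 CPM in control to 47.8 ± 17.8 in DSS and 8.43 ± 5.53 in DSS + EA. Mmp9, a matrix protease that lipocalin 2 binds, had 1.35 ± 0.745, 79.2 ± 62.9 and 3.88 ± 1.20 CPM. Both passed the test in DSS + EA against DSS and in DSS against control (edgeR adjusted p of 0.00309 or less). Lrp1, a large endocytic receptor, had 23.4 ± 3.87, 124 ± 32.6 and 26.9 ± 4.25 CPM in control, DSS and DSS + EA, and Scarb1, a receptor of high-density lipoprotein, had 17.1 ± 2.99, 40.7 ± 11.3 and 17.0 ± 0.88 CPM. Both were called higher in DSS and lower with EA (edgeR adjusted p of 0.00473 or less), and their DSS + EA mice overlapped the control mice. Ltf, the iron-binding lactoferrin of neutrophil granules, had 0 counts in control and 9.89, 140.6 and 51.4 CPM in DSS mice 1, 2 and 3, with 1.85 to 5.04 CPM in DSS + EA mice.

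Defence genes of the epithelium did not share one course. Of 20 tested of 21, 5 were higher in DSS than in control (Ccl20, Cxcl5, Nos2, Pla2g2a and Slpi) and 7 lower, which is 25.0% and 35.0% of them beside 21.5% and 19.5% of all genes, with a median log2 fold change of -0.37. Of the 20, 3 had at most 10 counts in the control mice together (Reg3a, Nos2 and Cxcl5). They passed the filter through the other groups, which favours a higher call over control. The Nos2 call in DSS was lost with only these groups in the fit, and without any one control mouse, DSS mouse 2 or DSS mouse 3. With EA, 5 were higher than in DSS (Fut2, Lypd8, Muc1, Reg3a and Zg16) and 2 lower (Cxcl5 and Slpi), or 25.0% and 10% beside 17.2% and 18.3% of all genes, with a median of 1.41. Lypd8 lost its call without DSS mouse 2 (edgeR adjusted p = 0.0507). Over control, 7 were higher and 1 lower (Itln1) with EA, with a median of 1.24. That is 35% and 5% beside 3.00% and 0.637% of all genes. The 7 include Cxcl5, Nos2 and Reg3a, for which the filter favours a higher call. These counts moved when 1 mouse was left out. Without DSS mouse 1, 10 were lower in DSS and 11 higher with EA than in DSS, while without control mouse 1 or 2, 4 were lower in DSS and 2 higher with EA than in control, and without DSS + EA mouse 3 the last count was also 2. Higher with EA than in control were 10 without DSS mouse 1, and 13, with 2 lower, with only these groups in the fit. Cxcl5, a neutrophil chemokine, had 38.0, 155.6 and 75.2 CPM in DSS mice 1, 2 and 3 and 3.62, 6.67 and 5.35 in DSS + EA mice, with at most 0.330 CPM in control mice. Slpi, a secreted protease inhibitor, went from 22.9 ± 10.5 CPM in control to 1095 ± 640 in DSS and 333 ± 106 in DSS + EA. Its EA call against DSS was lost without DSS mouse 3 (edgeR adjusted p = 0.0518), DSS + EA mouse 1 (0.0599) or DSS + EA mouse 2 (0.0671). Zg16, a lectin of goblet cells, was 3826 ± 80.8 CPM in control, 940 ± 660 in DSS and 6102 ± 341 in DSS + EA, so that like Saa1 it was highest with EA. It passed the test with EA against DSS (edgeR adjusted p = 0.00342). Fut2, a fucosyltransferase of the epithelium, had 90.7 ± 14.1, 27.5 ± 13.8 and 167 ± 47.8 CPM and Lypd8, which keeps flagellated bacteria from the epithelium, had 7388 ± 1085, 3756 ± 3050 and 14232 ± 1106 CPM in control, DSS and DSS + EA. Reg3b, an antibacterial lectin, had 33.0 to 1116 CPM in control mice, 13335, 91.8 and 25.7 in DSS mice 1, 2 and 3 and 10319 to 22859 in DSS + EA mice, and it passed none of the 3 tests, although without DSS mouse 1 it was called higher with EA than in DSS and than in control, and over control also with only these groups in the fit. Retnlb, a goblet cell protein, had 2303 to 7882 CPM in control mice, 1597, 171 and 61.6 in DSS mice and 1234 to 1773 in DSS + EA mice. It was 1 of the 7 called lower in DSS (edgeR adjusted p = 0.0439), and that call was lost under 11 alternatives (edgeR adjusted p from 0.0501 to 0.141), among them leaving out any mouse other than DSS mouse 1.

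The 5 genes can be grouped as epithelial acute-phase genes, and marker lists of cell types are given beside them. Saa3, Lcn2 and Hp rose in DSS, where 5 of 10 markers of epithelium were called lower and most markers of neutrophils, macrophages and fibroblasts higher. The 10 epithelial markers summed to 11549, 11435 and 12830 CPM in control mice 1, 2 and 3, to 10974, 4687 and 2592 in DSS and to 11508, 10430 and 11217 in DSS + EA. Lgals4 was the most abundant marker in every library. In DSS, 5 of 10 were called lower than in control (Cldn3, Cldn7, Krt18, Krt20 and Vil1), with a median log2 fold change of -1.16. That is 50% beside 19.5% of all genes called lower. With EA, 4 of 10 were higher than in DSS (Cldn3, Cldn7, Krt20 and Vil1), with a median of 1.05. That is 40% beside 17.2% of all genes called higher. The Krt20 call was lost with only these groups in the fit, and without control mouse 1 or 2, DSS mouse 2 or any one DSS + EA mouse. The Cldn3 call was lost without DSS mouse 2 (edgeR adjusted p = 0.0528) or DSS + EA mouse 1 (0.0601), and the Cldn7 call without DSS + EA mouse 1 (0.0593). Without DSS mouse 1, 9 of 10 were called lower in DSS and 9 higher with EA, and without DSS + EA mouse 1 or DSS mouse 2 the number higher with EA was 1 or 2. Vil1, the villin of the brush border, had 149 ± 19.3 CPM in control, 40.5 ± 26.7 in DSS and 161 ± 8.76 in DSS + EA. Krt8 and Krt19, keratins of simple epithelium, had 1448 ± 121 and 1323 ± 93.3 CPM in control and 684 ± 497 and 622 ± 504 in DSS and did not pass the test. DSS mouse 1 had an epithelial sum near the control mice, but 6380 CPM of it was Lgals4. Without Lgals4 the other 9 markers summed to 6419, 6134 and 7471 CPM in control mice 1, 2 and 3, to 4594, 2584 and 1131 in DSS and to 6509, 4980 and 5945 in DSS + EA, so that DSS mouse 1 lay below every control mouse and above the other DSS mice. It also had the lowest Saa3 and Lcn2 and the highest Saa1 of its group.

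Neutrophil markers were low in control colon and rose with Saa3 and Lcn2 in DSS. The 14 listed summed to 147, 178 and 44.5 CPM in control mice 1, 2 and 3, to 4605, 25074 and 27554 in DSS and to 1514, 1246 and 1623 in DSS + EA. DSS mouse 1 was lowest of its group here as in Saa3 and Lcn2, and DSS mouse 3 highest as in Saa3, Lcn2 and Hp. The macrophage and fibroblast sums given below had DSS mouse 1 lowest and DSS mouse 3 highest as well. In DSS 10 of 14 were called higher and the other 4 did not pass the filter on low counts. The 10 were 100% of those tested, beside 21.5% of all genes called higher. As 6 of the 10 had at most 10 counts in the control mice together and passed the filter through the other groups, a higher call was favoured for them. The median log2 fold change of the 10 was 9.40, or 8.16 with genes at 0 in a whole group at their lower bound. Of these, 8 were called lower with EA than in DSS, or 80% beside 18.3% of all genes, with a median of -3.50. For markers that needed the DSS mice to pass the filter, such as Camp and Ngp, a lower call with EA was favoured too. Called higher with EA than in control were 5, or 50% beside 3.00% of all genes. The last count was 2 (S100a8 and S100a9) without control mouse 1, control mouse 2 or any one DSS + EA mouse, 3 without control mouse 3 or DSS mouse 2, and 9 without DSS mouse 1. Ly6g, a surface protein of neutrophils, made up much of the sums of control and DSS + EA mice. It had 127, 148 and 16.4 CPM in control mice, 2149, 1287 and 1395 in DSS mice and 502, 549 and 1029 in DSS + EA mice, with the highest value in DSS mouse 1, and its difference with EA did not pass the test (log2 fold change -1.22, SE 0.62, edgeR adjusted p = 0.148). Without Ly6g the other 13 summed to 20.2, 30.0 and 28.1 CPM in control mice, 2456, 23786 and 26159 in DSS mice and 1011, 697 and 594 in DSS + EA mice. The order of the groups was the same without it, and the highest DSS + EA mouse was mouse 1 in place of mouse 3. S100a8, a calprotectin subunit, had 1.51, 1.98 and 0.380 CPM in control mice, 1717, 15668 and 19022 in DSS mice and 639, 442 and 370 in DSS + EA mice. Ngp, a granule protein of maturing neutrophils, had 85.9, 1254 and 807 CPM in DSS mice and no more than 4.82 CPM in any other mouse. S100a9, the other calprotectin subunit, had 398, 5162 and 3971 CPM in DSS mice and 86.7 to 200 in DSS + EA mice, and Retnlg, a resistin-like protein of myeloid cells, had 109, 638 and 1448 and then 54.8 to 92.4 CPM. Camp, the cathelicidin, had 25.5, 669 and 227 CPM in DSS mice and no more than 1.81 CPM in any other mouse. Cxcr1 had 0 counts in every library.

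The summed macrophage and fibroblast markers also had the group order of Saa3, Lcn2 and Hp, and single markers had it less uniformly. The 12 macrophage markers summed to 484, 496 and 503 CPM in control mice 1, 2 and 3, to 1555, 1728 and 2858 in DSS and to 1054, 992 and 1081 in DSS + EA. Lyz2 led in every library, with 269 ± 5.20, 902 ± 409 and 442 ± 16.4 CPM. In DSS 10 of 12 were called higher than in control, or 83.3% beside 21.5% of all genes. With EA 8 were called lower than in DSS, or 66.7% beside 18.3%. Called higher with EA than in control were 4 (C1qa, C1qb, C1qc and Msr1), or 33.3% beside 3.00%. The last count was 2 (C1qa and C1qc) without any one control mouse, DSS + EA mouse 1 or DSS + EA mouse 3, and 7 without DSS mouse 3, while the count lower with EA than in DSS was 5 without DSS + EA mouse 2. Adgre1, C1qa, Fcgr1 and Mertk did not have all 3 groups apart in the order of Saa3. They were picked for naming (C1qa aside) after their values were seen. Mertk had 10.4 ± 3.11, 7.92 ± 1.38 and 9.01 ± 1.93 CPM. C1qa, C1qb and C1qc, the chains of complement C1q, had 265 ± 81.4, 338 ± 107 and 165 ± 20.3 CPM in DSS and 220 ± 16.7, 181 ± 43.8 and 85.5 ± 5.30 in DSS + EA. The scavenger receptors Mrc1 and Msr1 had 35.0 ± 13.0 and 66.5 ± 49.9 CPM in DSS and 8.59 ± 1.54 and 9.58 ± 2.05 in DSS + EA. The EA calls of Lyz2 and C1qb were lost without DSS + EA mouse 2 (edgeR adjusted p = 0.0568 and 0.0989), that of Lyz2 also without DSS + EA mouse 1 (0.0528), and that of C1qb also without DSS mouse 2 (0.0572), DSS mouse 3 (0.0683) or DSS + EA mouse 3 (0.0607). Both were lost with only these groups in the fit (0.0509 and 0.0666). The 10 fibroblast markers summed to 864, 937 and 922 CPM in control, 4330, 5187 and 7110 in DSS and 1840, 1764 and 1823 in DSS + EA. Col3a1 and Dcn were the most abundant of them. In DSS 10 of 10 were called higher than in control, or 100% beside 21.5% of all genes. With EA 8 were called lower than in DSS, or 80% beside 18.3%. Called higher with EA than in control were 4 (Col1a1, Col1a2, Dcn and Pdpn), or 40% beside 3.00%. The last count was 2 without control mouse 1, control mouse 2 or DSS + EA mouse 3. Pdpn kept its call over control each time 1 mouse was left out, and Dcn lost it without any one control or DSS + EA mouse (edgeR adjusted p from 0.0515 to 0.123). Lum and Dpt did not have all 3 groups apart in the order of Saa3. Col1a1 and Lum were picked for naming after their values were seen. Dcn, the proteoglycan decorin, had 282 ± 26.3, 2421 ± 392 and 583 ± 74.1 CPM in control, DSS and DSS + EA, and the collagen gene Col1a2 had 65.8 ± 3.72, 325 ± 48.3 and 150 ± 11.4. Pdpn and Pdgfra, surface proteins of fibroblasts, had 45.6 ± 9.77 and 82.4 ± 10.7 CPM in DSS and 13.8 ± 0.95 and 26.1 ± 2.45 in DSS + EA. Dpt had 74.6 ± 2.36, 124 ± 14.8 and 79.8 ± 7.96 CPM, and its EA call was lost without DSS + EA mouse 1 (edgeR adjusted p = 0.0699) or mouse 2 (0.0521), with only these groups in the fit (0.0543) and with no filter on low counts (0.0742).

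**Figure D5:**
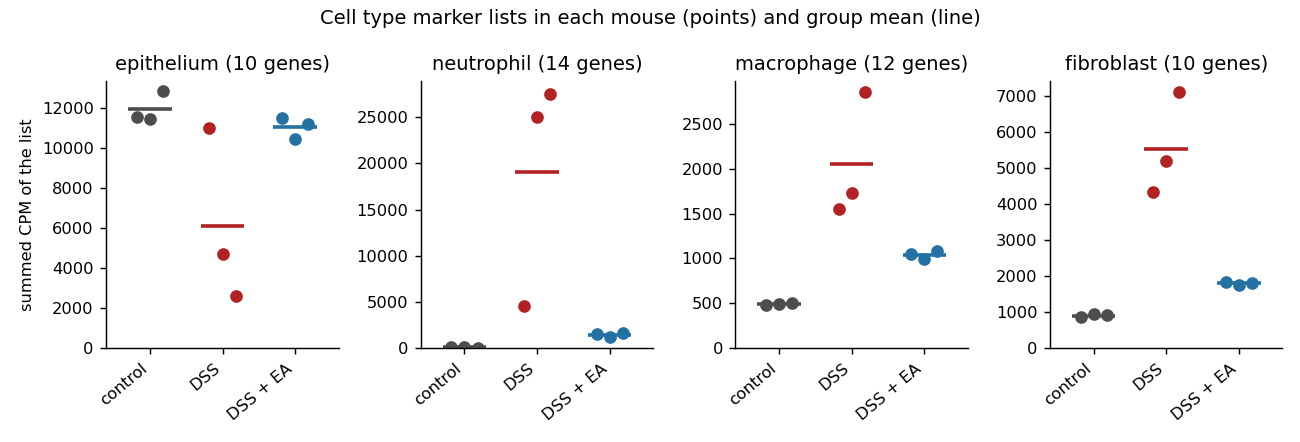
Summed CPM of 4 cell type marker lists in each mouse (points) with the group mean as a line. Neutrophil, macrophage and fibroblast sums are highest in DSS and in between in DSS + EA, while epithelial sums are lowest in DSS mice 2 and 3, at 4687 and 2592 CPM.

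The summed fat and liver markers did not have the group order of Saa3, and by group means 1 member of each list did (Fabp4 and Trf). The 10 adipocyte markers summed to 127 to 296 CPM in control mice, 172 to 196 in DSS mice and 174 to 221 in DSS + EA mice, with Pparg, Cfd or Fabp4 in the lead. Of 8 tested, 1 was higher in DSS than in control (Fabp4) and 4 lower (Adipoq, Cfd, Cidec and Retn), of which Cfd stood at an edgeR adjusted p of 0.0497 with overlapping groups and lost its call under 11 alternatives (edgeR adjusted p up to 0.145), and Retn lost its call without control mouse 2 (edgeR adjusted p = 0.0585), where 1 of 8 was called lower. The 1 higher and 4 lower in DSS were 12.5% and 50% of the adipocyte markers tested, beside 21.5% and 19.5% of all genes. With EA, Fabp4 was called lower than in DSS and Cidec higher, the latter call being lost without DSS mouse 2 (edgeR adjusted p = 0.0533). Fabp4, a fatty acid binding protein, had 33.8, 71.9 and 54.0 CPM in control mice, 114, 134 and 133 in DSS and 45.3, 62.6 and 60.4 in DSS + EA, so that the DSS + EA mice overlapped the control mice. The 12 liver markers summed to 93.5 to 135 CPM in control mice, 111 to 166 in DSS mice and 154 to 172 in DSS + EA mice, with Ttr or Trf in the lead. Alb, the defining gene of liver, had no more than 2.31 CPM in any library. Of 4 tested, 1 was called higher in DSS (Trf), or 25% beside 21.5% of all genes. Trf, the iron carrier transferrin, had 26.0, 40.2 and 39.9 CPM in control mice, 80.1, 98.5 and 95.7 in DSS and 64.6, 62.6 and 82.8 in DSS + EA, where DSS and DSS + EA overlapped. Tat, an enzyme of tyrosine breakdown, was called higher with EA than in DSS, at 39.7 ± 9.09 against 15.9 ± 5.77 CPM, and Apob, at 0 to 10.9 CPM, passed none of the 3 tests. Ttr, the thyroid hormone carrier transthyretin, had 67.1, 69.3 and 14.4 CPM in control mice, 31.0, 5.60 and 2.79 in DSS and 29.6, 36.3 and 36.5 in DSS + EA, and passed none either. Without DSS mouse 1, 2 of the 4 were called lower in DSS and 3 higher with EA than in DSS (Apob, Tat and Ttr). Which cells made Saa3, Lcn2 and Hp, and what part the neutrophil, macrophage and fibroblast markers had in their rise, was not tested. The cells that made Saa1 and Saa2 were not tested either, and the 5 genes are called by name here.

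Relative to the epithelial markers, Saa1 was highest with EA. There were 17.6, 17.1 and 5.96 Saa1 counts per 100 counts of the 10 epithelial markers in control mice 1, 2 and 3. DSS mice 1, 2 and 3 had 15.1, 17.7 and 10.7, within or near the control range. The DSS + EA mice had 35.5, 23.6 and 28.6, above every other mouse. Without Lgals4 in the sum the values were 31.7, 31.8 and 10.2 in control, 36.1, 32.1 and 24.4 in DSS and 62.9, 49.4 and 53.9 in DSS + EA. The lower Saa1 CPM of DSS mice 2 and 3 thus stood beside a lower epithelial sum, and its part in the Saa1 values was not tested.

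The genes next to the members on the chromosome were also read. Among 13 neighbours, 11 were tested and had log2 fold changes between -1.17 and 1.39 in the 3 comparisons. Of these, 3 were called in DSS against control (Dhx38, Dhodh and 1110008P14Rik) and 5 in DSS + EA against DSS (the same 3, Saal1 and Hps5), where 40.9% and 35.5% of all genes were called in either direction. Tph1 and Gtf2h1 beside the Saa cluster, Ciz1, Ptges2 and Slc25a25 beside Lcn2 and Txnl4b beside Hp were called in neither, and Saa4 and Pkd1l3 were too low to test. Saal1 had 13.3 ± 2.29 CPM in control, 8.76 ± 0.879 in DSS and 18.5 ± 1.11 in DSS + EA and was higher with EA than in DSS (log2 fold change 1.08, SE 0.22, edgeR adjusted p = 0.00529). Hps5, on the Saa2 side, was also higher with EA than in DSS, by 1.16 on the log2 scale (SE 0.32, edgeR adjusted p = 0.0204).

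Likeness of pattern was measured as Pearson's r of log2 CPM over the 9 libraries, which share their groups, and it is given as a description. Saa3 and Hp had r = 0.995, Saa3 and Lcn2 0.990, and Lcn2 and Hp 0.978. Saa2 had r from 0.824 to 0.861 with these 3. Saa1 had r from -0.246 to -0.445 with the other members. The gene outside the members most like Saa3 was Timp1, a metalloprotease inhibitor, at r = 0.995, and the next 4 were loci known only from the study's own reads or without a gene symbol. For Lcn2 it was Chil3, a lectin of myeloid cells, at 0.996, followed by an unannotated locus of the study's own reads, Aebp1 at 0.992, Il1r2, the decoy receptor of IL-1, at 0.991, and Timp1 at 0.991. Hp was most like a long non-coding locus found by the study's own reads, with Serping1, the C1 inhibitor, at 0.992 the only gene with a symbol among its first 5. Saa1 was most like Rdh9, a retinol dehydrogenase, at 0.957, followed by Pla2g4f, Slc6a8, Il18 and the epithelial mucin Muc13 at 0.948. For Saa2, which held at most 17 counts a library, the leading gene was Zfp429 at 0.947. Timp1 had 4.03, 3.96 and 3.42 CPM in control mice 1, 2 and 3, 171, 300.1 and 467 in DSS mice and 37.7, 61.5 and 40.6 in DSS + EA mice, the same order of groups as Saa3.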

How the data were processed

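Colon RNA was made into full-length cDNA, amplified and read on a Nanopore sequencer. The deposited counts per gene were used as the authors gave them, and the submitters' processing notes name mm10. The aligner, the counter and the use of strand are not given in the sources used here. Of 27733 lines, 14 held no counts. edgeR 4.0.16 (R 4.3.3) fitted the 9 libraries together, with group as the only term, TMM factors, the filterByExpr filter, a prior count of 0.125 and Benjamini-Hochberg adjustment over 12566 genes. SE was the fold change divided by the square root of F. DESeq2 1.42.0, other scalings, filters and thresholds, and leaving out each mouse were tried, and marker sums without Ly6g or Lgals4 were added after seeing the data. The members and lists were chosen with earlier results of these data known, and 1 gene of the cytokine and signal list is not reported here. Named in each list were the 4 genes with the highest mean CPM and the 2 with the smallest p in each of DSS + EA against DSS and DSS against control; other genes printed with a list count were named after their values were seen. Likeness used a prior count of 2, naming those with a symbol among the 5 most alike (for Saa2 the first). Counts are PCR products, so intervals cover counting error only. The libraries of 3 mice a group limit precision, and genes of near-identical sequence may share reads, which was not tested.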

Additional observations from a re-analysis of the deposited data

How the results depend on the processing

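Saa3 and Hp kept their direction and their call in all 3 comparisons under all 18 alternatives, and Lcn2 did in DSS + EA against DSS and in DSS against control. When summed with Saa1, Saa2 turned to 1.81 in DSS + EA against DSS and to -0.78 in DSS against control on the log2 scale, because the sum is nearly all Saa1, and it was not tested where a mean of 20 counts was required or, over control, with only the groups compared in the fit, so that its DSS call was lost there. Among 105 values of other named genes, 82 kept their call throughout and 0 reversed. Genes called in DSS against control were 5145, with 1280 under the DEG rule and 2946 at an adjusted p under 0.01; in DSS + EA against DSS they were 4457, with 806 and 2107. In DSS + EA against control they were 457, with 261 and 127, and 697 by DESeq2, 1147 with only these groups fitted, and 107 to 772 leaving out 1 mouse at a time; the cause was not tested. Same-numbered mice of different groups correlated from -0.16 to 0.11, so the numbers were not taken as pairs, and the fit with a replicate block called 4, 4 and 3 of the 5 genes, as without it. At these depths Saa2 rests on 0 to 17 counts a library, and changes in it are barely resolved.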
